A study of Mus musculus with 47 samples.

Results

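The genes followed across every library were Lyl1, Hhex, Mycn, Mef2c and Lmo2. They encode transcription factors, or a partner of one, that are active in blood stem cells and early progenitors. They were chosen by symbol from one merged table of expression values, which lists 17754 genes in 47 mouse RNA-seq libraries, and all 5 symbols were present. The study asked what the zinc-finger factor Bcl11b, which switches on as T-cell precursors commit to the T lineage, does to the genes of those precursors. The stages are named DN2a, DN2b and DN3, in order of development, for CD4- and CD8-negative precursors, and commitment takes place between DN2a and DN2b.

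LMO2 binds no DNA itself. It bridges basic helix-loop-helix dimers, such as LYL1 or TAL1 with an E protein, to GATA factors and to LDB1, and the resulting complexes act in stem cells, red cells and megakaryocytes. LYL1 is the close relative of TAL1 and is needed for early T-cell progenitors. HHEX is a homeodomain factor used in stem and early lymphoid cells, MYCN is a MYC-family factor of cycling progenitors, and MEF2C is a MADS-box factor of lymphoid and myeloid progenitors. In mouse and human, LMO2, LYL1, HHEX and MEF2C are known for their part in T-cell leukaemia of early precursor type.

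Most libraries came from fetal liver precursors taken at E13.5 and grown on OP9-DL1 or OP9-DL4, bone marrow stromal lines that express a Notch ligand, with Flt3L and IL-7 at 5 ng/ml. Knockout cells (8 libraries on DL1 and 6 on DL4) carried floxed Bcl11b alleles, and controls (8 on DL1 and 3 on DL4) came from C57BL/6 embryos, some of either with a ROSA26R-YFP reporter. Both are described as receiving a Cre retrovirus before culture. The titles of control DL1 replicates 1 and 2 and control DL4 replicate 1 give B6 without Cre. Other control titles name Cre, so shared exposure to Cre is not certain for these 3. The floxed animals came from 2 stocks, Bcl11bL2/L2 bred to B6 and PLBD Bcl11bfl/fl with Cre-ERT2 expressed from ROSA26 in all tissues, and the labels do not say which stock gave which library. The protocol gives a DN2a gate (high Kit) for knockout cells and a DN2b gate (intermediate Kit) for controls, but the titles differ from it in part. Of the knockout libraries 8 are titled DN2a, 5 DN2 and 1 DN2b, and of the controls 8 are titled DN2b and 3 DN2, so gate and genotype differ together in most libraries but not in all. IL-7 was reduced in some early cultures (4 of 14 knockout and 3 of 11 control libraries). Normal B6 fetal liver cells on DL1, without Cre, gave 4 DN2a and 2 DN2b libraries. Matching sets of 2 DN2a and 2 DN2b libraries received 1 µM of the gamma-secretase inhibitor GSI, which blocks Notch activation, for the last 12 h. The title of DN2b replicate 1 and its GSI partner names DN3 where the stage label gives DN2b. DN2a replicates 1 to 3 and both DN2a libraries with GSI carry more than one date in their titles, as for pooled harvests. Fresh thymic DN3 cells came from LckCre, floxed Bcl11b with CreERT2 (not deleted) and CreERT2 mice, 1 library each, and thymic DN2 cells from a mouse with Bcl11b deleted by LckCre. The LckCre transgene acts in the T lineage. Thymic DN3 cells were also treated with 100 nM 4-OH tamoxifen and cultured on DL4, 1 knockout for 4 days and 2 CreERT2 controls for 3 and 4 days. Bone marrow precursors with CreERT2 gave 1 library with floxed and 1 with wild-type Bcl11b, both given tamoxifen and grown on DL4. Fetal liver cells given a further vector 36 h before harvest made up the last 3 libraries.

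The values are FPKM, fragments scaled to transcript length and library size, which the authors adjusted with ComBat. The lowest value in the table is 0.1, so 0.1 means that a gene is listed at the floor. Between 11756 and 13370 genes reached 1 FPKM in a library. Read depth is unknown, so no counting error can be given. Bcl11b was 8.77 FPKM at the lowest, 25.1 at the median and 37.9 at the highest in the 14 knockout libraries, and 16.9, 54.5 and 84.4 in the 11 controls. It was called lower (log2 difference -1.22, SE 0.21, limma adjusted p = 0.000127). The labels do not say which exons are removed, and RNA from the rest of the gene would still count. In 1 of 9 pairs of the same title date the gene went against the labels, at 23.6 FPKM in the library labelled knockout DL1 replicate 1 and 16.9 in the library labelled control DL1 replicate 1. In bone marrow it was 45.04 and 44.9 FPKM in the libraries labelled knockout and control and did not separate them. The 6 T-precursor markers (Ptprc, Thy1, Il2ra, Kit, Il7r and Notch1) summed to between 459 and 1729 FPKM across the groups examined.

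The promoters of the 3 members that differed between knockout and control are shown so that their sequence can be set beside their values. Each runs from 250 bases before to 50 bases after the RefSeq start of the gene, on its strand and in build GRCm38.p6. Capitals mark the E-box CANNTG, the letters bound by helix-loop-helix dimers such as those of LYL1, TAL1 and the MYC family. Lyl1 lies on the plus strand at chr8:84701207-84701506, Hhex on the plus strand at chr19:37434591-37434890 and Mycn on the minus strand at chr12:12941787-12942086.
Lyl1: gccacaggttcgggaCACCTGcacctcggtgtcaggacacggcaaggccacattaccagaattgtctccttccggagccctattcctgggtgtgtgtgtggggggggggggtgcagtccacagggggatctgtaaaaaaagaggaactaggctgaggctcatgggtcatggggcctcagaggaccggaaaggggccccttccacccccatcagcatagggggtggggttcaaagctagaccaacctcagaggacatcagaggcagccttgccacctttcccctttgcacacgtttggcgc
Hhex: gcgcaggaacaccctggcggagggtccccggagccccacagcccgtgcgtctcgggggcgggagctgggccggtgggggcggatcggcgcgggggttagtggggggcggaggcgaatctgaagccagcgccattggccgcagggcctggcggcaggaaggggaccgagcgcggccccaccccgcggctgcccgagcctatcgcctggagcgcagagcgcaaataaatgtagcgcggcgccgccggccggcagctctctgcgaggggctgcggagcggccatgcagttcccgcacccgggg
Mycn: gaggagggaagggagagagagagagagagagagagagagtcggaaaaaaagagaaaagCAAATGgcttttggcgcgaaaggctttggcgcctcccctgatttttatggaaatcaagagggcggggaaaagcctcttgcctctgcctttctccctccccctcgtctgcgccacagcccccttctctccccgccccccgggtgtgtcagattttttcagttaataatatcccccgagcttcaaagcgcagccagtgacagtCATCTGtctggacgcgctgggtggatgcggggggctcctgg

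The Lyl1 window held 1 E-box, starting at position -235 from the gene's start, and the Mycn window 2, at -192 and 10. The Hhex window held 0 and was the richest in G and C, at 75.7% against 56.7% for Mycn. An E-box was present in 72.3% of the 32851 mouse promoter windows of the same length, searched on both strands, so its presence sets none of these genes apart. The GATA letters AGATAA occurred in 11.2% of all windows and the MYC E-box CACGTG, itself a form of CANNTG, in 7.15%. Both had no match in the windows of Lyl1, Hhex or Mycn. Of 3 windows listed for Mef2c, E-boxes lay in the first (2) and the third (1).

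The 5 genes fell into levels far apart. Over all 47 libraries Lyl1 ranged from 0.1 to 108.3 FPKM with a median of 35.4, Mycn from 3.11 to 47.4 with a median of 11.3, and Hhex from 1.64 to 35.3 with a median of 12.6. Mef2c reached 2.81 FPKM at most, with a median of 0.840, and Lmo2 reached 2.04, with a median of 0.825. Lmo2 was listed at the floor in 8 libraries, Lyl1 in 2 and Mef2c in 1. FPKM is a value per length, so Lyl1, Hhex and Mycn may be said to lie above Mef2c and Lmo2 in the fetal liver cultures, where Lyl1 was the highest of the 5 by group mean. Cultured thymic DN3 controls differed, with Mycn (6.82 FPKM) above Lyl1 (4.94) by mean and Lyl1 at the floor in 1 of 2 libraries.

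**Figure D1:**
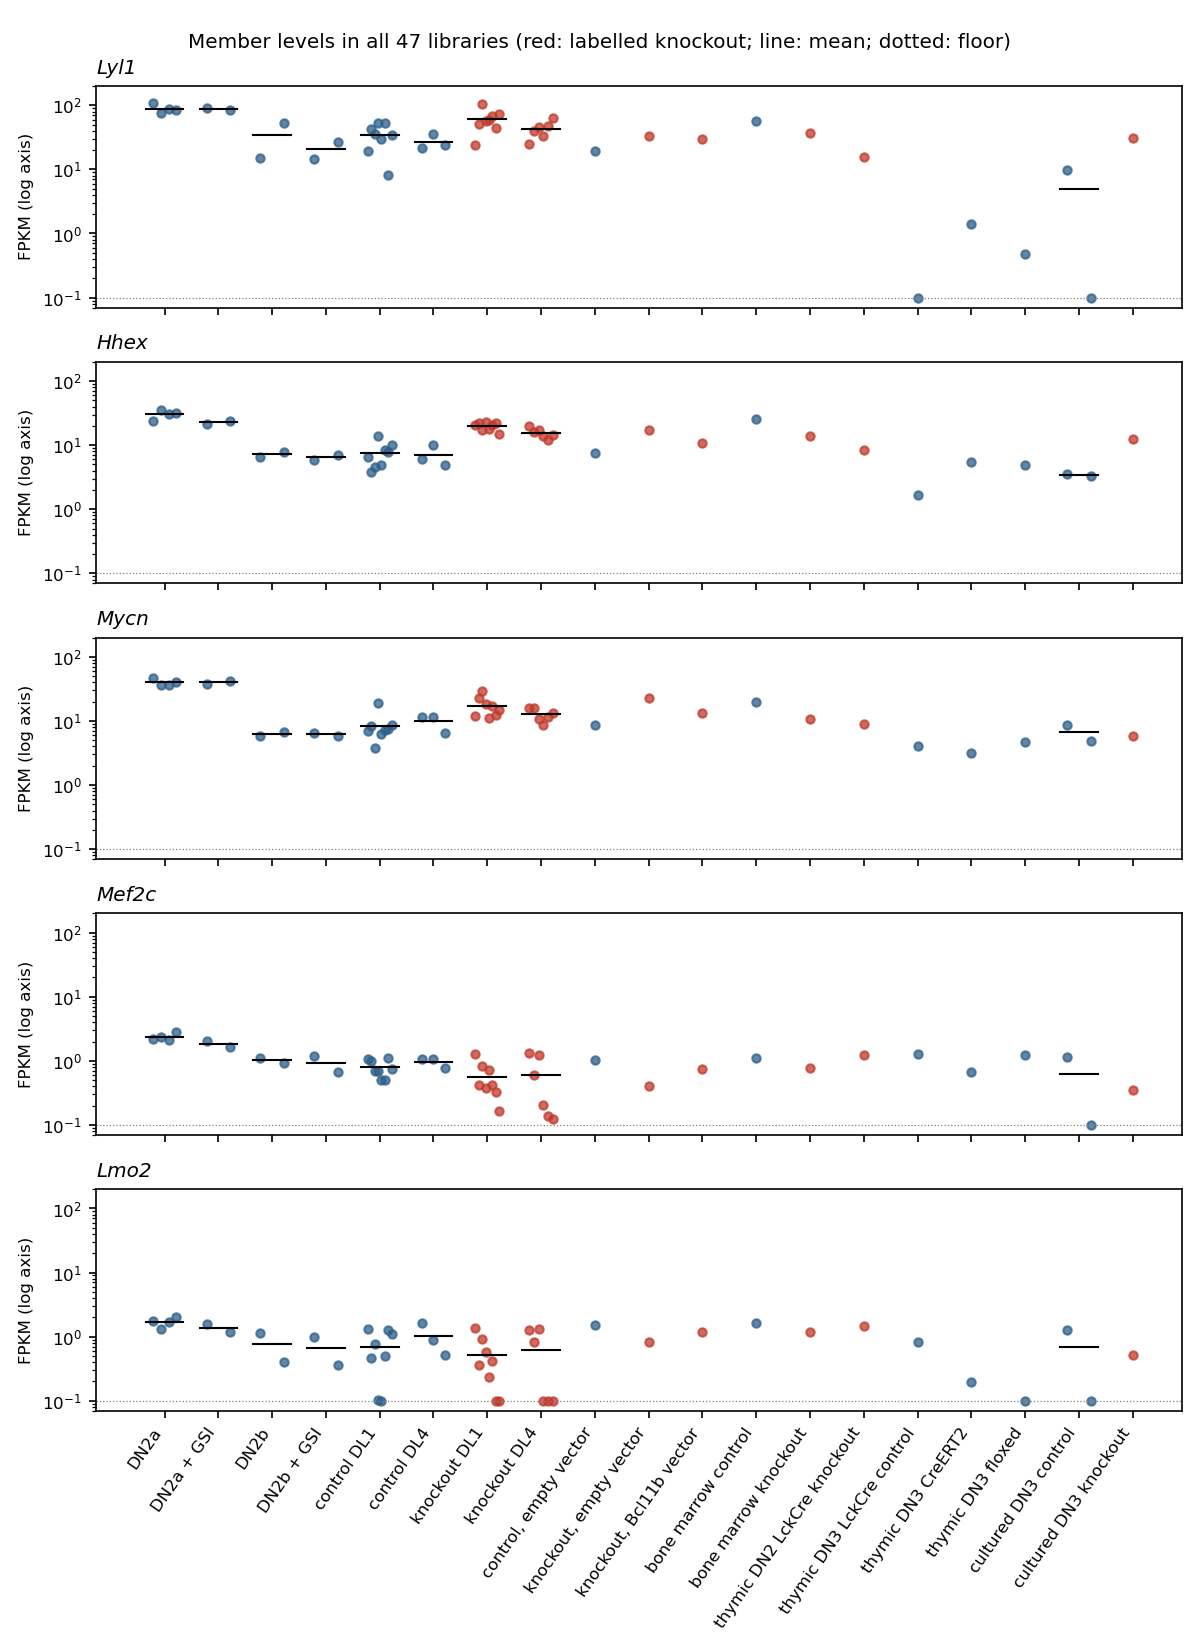
FPKM of each member on a log axis in every library, by group, with 1 point per library, a line at the mean of groups with more than 1 library and the floor of 0.1 FPKM dotted; red points are labelled knockout. Lyl1, Hhex and Mycn are high in DN2a and low in fresh thymic DN3, while Mef2c and Lmo2 stay under 3 FPKM throughout.

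Ordered by group mean, DN2a stood first for Lyl1 (88.8 FPKM), Hhex (30.5), Mef2c (2.37) and Lmo2 (1.70) and second for Mycn (40.4, against 40.6 in DN2a with GSI). The knockout on DL1 came next among the replicated groups without GSI, at 60.2 FPKM for Lyl1, 19.9 for Hhex and 17.3 for Mycn. For Mef2c and Lmo2 the fetal liver knockout groups on DL1 and DL4 instead lay near the bottom of the order, at 0.567 and 0.511 FPKM on DL1. The 1 thymic LckCre knockout library stood higher in both, at 1.23 and 1.48 FPKM. DN2b and the controls on DL1 did not differ beyond the SD of the controls for Lyl1, Hhex, Mycn and Lmo2. The lowest group of Lyl1, Mycn and Hhex was in each case 1 of the fresh thymic DN3 libraries.

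The normal step from DN2a to DN2b was examined first, because commitment happens there. Hhex and Mycn were higher in DN2a than in DN2b. Mef2c was called higher too, but it passed the filter on low values only through DN2a. Mycn showed the widest gap, 40.4 ± 5.12 FPKM (SD, n = 4) against 6.33 ± 0.590 (SD, n = 2), and Hhex followed with 30.5 ± 4.85 against 7.26 ± 0.891. Lyl1 and Lmo2 differed in the same direction but did not pass the test.

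Mycn was 47.4, 36.2, 37.0 and 40.9 FPKM in DN2a replicates 1 to 4 and 5.91 and 6.74 in DN2b replicates 1 and 2. The groups lay far apart, with the lowest DN2a library well above both DN2b libraries, and the log2 difference, taken here and below on log2(FPKM + 1), was 2.49 (SE 0.18, limma adjusted p = 0.00147). For Hhex the DN2a libraries held 23.8, 35.3, 30.6 and 32.2 FPKM and the DN2b libraries 6.63 and 7.89. Again no library of one group reached the other, and the difference was 1.92 (SE 0.20, limma adjusted p = 0.00628). Mef2c stood at 2.20, 2.32, 2.13 and 2.81 FPKM in DN2a and at 1.12 and 0.937 in DN2b. All of its values were low, and its difference was 0.73 (SE 0.18, limma adjusted p = 0.0384).

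Lyl1 was 108.3, 74.9, 86.8 and 85.2 FPKM in DN2a. Its DN2b libraries disagreed with each other, at 15.2 FPKM in replicate 1, titled DN3, and 53.3 in replicate 2, although both lay below every DN2a library. Lyl1 missed the threshold, with a difference of 1.59 (SE 0.43, limma adjusted p = 0.0528). Lmo2 held 1.78, 1.31, 1.67 and 2.04 FPKM in DN2a and 1.12 and 0.407 in DN2b, a difference of 0.63 (SE 0.22) that was not called (limma adjusted p = 0.0984). Every DN2a library of Lmo2 lay above both DN2b libraries.

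Of the 3 members that reached 1 FPKM in every library of both groups (Lyl1, Hhex and Mycn), 2 were called, both higher in DN2a. Of the 13364 genes tested, 13.5% were called in either direction and 4.23% higher in DN2a. Mef2c and Lmo2 reached 1 FPKM in only 1 of 2 DN2b libraries and entered through the DN2a group, where they are high, so they are left out of that count. Scaling mattered for the whole table: 31.4% of calls were higher in DN2a, against 53.9% after quantile normalization, which moved the median difference of all genes from -0.07 to 0.05, and under which Lmo2 was also called (0.87, limma adjusted p = 0.0494). Without DN2b replicate 1, 60 genes were called in place of 1799; Hhex (limma adjusted p = 0.0641) and Mef2c (0.152) were not among them, while Mycn was. Without DN2b replicate 2, Lyl1 was called (2.46, limma adjusted p = 0.0109), Mef2c was not, and the count was 802. Mef2c lost its call without any 1 of the 6 libraries. Myeloid markers moved with the stage, as their sum was 52.6 to 70.4 FPKM in DN2a and 10.6 to 21.0 in DN2b, with Mpo the largest part in DN2a (46.3 ± 7.18 FPKM) and 2 of the 7 listed genes under 1 FPKM in both. Itga2b made up most of the erythroid and megakaryocyte sum, 82.1 to 110.7 FPKM in DN2a and 0.532 to 2.62 in DN2b and Pf4 and Gp9 stayed under 1 FPKM in both. The part of such cells in these differences was not tested, and in bulk RNA fewer cells of a type and less RNA per cell cannot be told apart.

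The 14 knockout libraries were next set against the 11 controls, with stroma and IL-7 in the model. Sorted stage was not in the model and differed along with genotype in most of these libraries. Loss of Bcl11b and stage cannot be told apart there. Hhex, Mycn and Lyl1 were higher in the knockout, Hhex by the widest margin. Mean levels were 18.0 ± 3.54 FPKM (SD, n = 14) against 7.34 ± 3.04 (SD, n = 11) for Hhex, 15.3 ± 5.38 against 8.80 ± 4.08 for Mycn and 52.5 ± 21.3 against 32.4 ± 13.9 for Lyl1. Lmo2 and Mef2c stayed near 1 FPKM or below in both groups and were too low to be tested.

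Hhex held 12.0 FPKM at the lowest, 17.7 at the median and 23.1 at the highest in the knockout, and 3.86, 6.50 and 13.9 in the controls. Only control DL1 replicate 4 reached the knockout range, and 12 of the 14 knockout libraries lay above every control. The log2 difference was 1.28 (SE 0.15, limma adjusted p = 6.52e-07), a 2.42-fold difference on that scale. In 9 pairs matched by title date, stroma and IL-7, Hhex was above its control in 9 of 9, by 0.31 to 2.02.

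Mycn held 8.77, 14.0 and 29.0 FPKM in the knockout and 3.73, 7.42 and 19.0 in the controls, in the same order of lowest, median and highest. The groups overlapped, because control DL1 replicate 4 lay above all but 2 knockout libraries, while 8 of 11 controls lay below every knockout library. Its difference was 0.79 (SE 0.19, limma adjusted p = 0.00423), and it was above its control in 8 of 9 pairs. Lyl1 ran from 23.7 through 49.3 to 105.2 FPKM in the knockout and from 8.15 through 34.1 to 53.8 in the controls. Here the ranges overlapped widely, with 6 of 14 knockout libraries above every control. Lyl1 differed by 0.76 (SE 0.23, limma adjusted p = 0.023) and was above its control in 8 of 9 pairs.

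**Figure D2:**
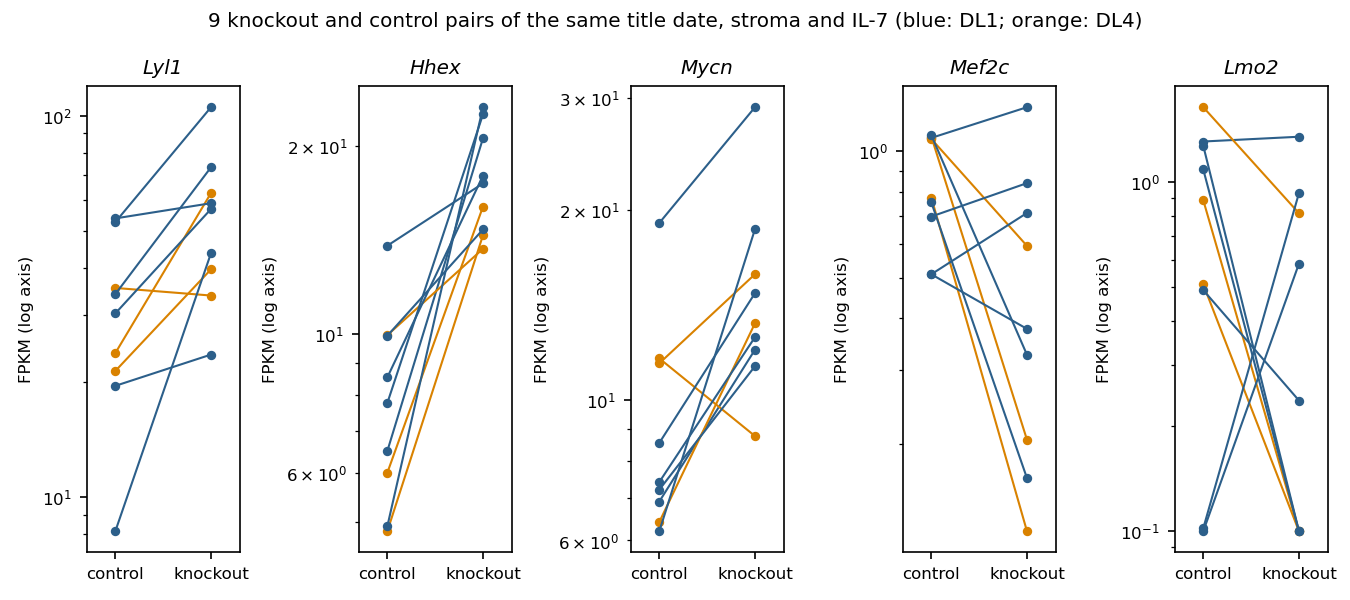
FPKM of each member on a log axis in 9 control and knockout pairs of the same title date, stroma and IL-7, with 1 line per pair, blue on DL1 and orange on DL4. All 9 Hhex lines run upward to the knockout, 8 of 9 do for Lyl1 and Mycn, and the lines of Mef2c and Lmo2 run both ways.

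Lmo2 spanned 0.1 to 1.35 FPKM in the knockout, with a median of 0.392, and 0.1 to 1.64 in the controls, with a median of 0.764. It was listed at the floor in 5 knockout libraries and 1 control, and knockout exceeded control in 3 of 9 pairs. Mef2c spanned 0.124 to 1.34 FPKM in the knockout and 0.509 to 1.09 in the controls, with medians of 0.417 and 0.776. Its knockout libraries split to either side of the controls: 8 of 14 lay below every control and 3 above every control. Those 3 (DL1 replicate 1, DL4 replicate 1 and DL4 replicate 3) were also the only knockout libraries in which Lmo2 reached 1 FPKM. Model differences without a test were -0.22 for Lmo2 and -0.26 for Mef2c.

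Thus 3 of the 5 members passed the filter on low values, and those 3 were called, all higher; 16.9% of 12678 genes tested were called in either direction and 9.8% higher in the knockout. With the 9 pairs as a block Hhex, Mycn and Lyl1 stayed called, among 1282 genes in place of 2142. With the 7 pairs of separate cultures as a block, 858 genes were called and Mycn was not among them (0.57, SE 0.17, limma adjusted p = 0.0719). Leaving out control DL4 replicate 3 ended the call of Lyl1 (0.73, limma adjusted p = 0.0507), as did leaving out the knockout and control cultures sampled on 3 days each (0.80, limma adjusted p = 0.0534), an alternative chosen after seeing the data. Within the first, second and last of the 3 years in the titles the difference of Hhex was 1.63, 1.00 and 1.24, called in the first and last. Lyl1 differed by 0.13, 0.64 and 1.00 and was called in no single year, and Mycn by 0.52, 0.29 and 1.06, called in the last. The libraries titled DN2 in both genotypes gave 1.06 for Hhex, 0.79 for Mycn and 0.67 for Lyl1, none of them called. Nothing in the labels says that libraries of a group came from separate animals, and some share a culture, so p-values measure the spread between libraries, which may be partly technical.

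Among markers of other cells, Itga2b (1 of 2 erythroid and megakaryocyte markers tested), Klrb1c and Klrd1 (2 of 3 NK markers) and Adgre1 (1 of 4 myeloid markers) were higher in the knockout, and 0 of 5 stromal markers were called. No B-cell marker was high enough to test. The erythroid and megakaryocyte list summed to 31.5 to 126.5 FPKM in the knockout and 0.532 to 18.5 in the controls. Itga2b made up most of it (61.0 ± 27.2 FPKM against 5.37 ± 5.70), with Pf4 and Gp9 under 1 FPKM in all of these libraries. NK markers summed to 6.40 to 147.1 and 1.60 to 76.8 FPKM, myeloid markers to 8.25 to 48.9 and 7.01 to 27.0, stromal markers to 22.6 to 57.9 and 12.8 to 55.6, and B-cell markers to 2.87 at most. Kit, which defined the sort, was 55.7 ± 21.5 FPKM in the knockout and 28.8 ± 11.3 in the controls. The part of other cells in the differences was not tested. In the 4 pairs titled with the same stage in both genotypes (3 DN2 and 1 DN2b), 3 of them from 1 culture of each genotype, the knockout library was above its control by 0.31 to 2.02 for Hhex, 0.58 to 1.45 for Mycn and 0.13 to 2.29 for Lyl1. Lyl1 overlaps Nfix on the opposite strand in the GENCODE M21 annotation, and Lmo2 overlaps 4931422A03Rik. The library protocol has no step that keeps strand, so reads of such partners cannot be told apart. Nfix itself was 15.6 ± 4.60 FPKM in the knockout and 13.8 ± 3.39 in the controls, a difference of 0.17 that was not called (limma adjusted p = 0.472).

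The partners that act with LMO2 and LYL1 did not move as a block. Of 14 measured and tested, 3 were higher in the knockout and 2 lower, with a median difference of -0.22 against 0.04 for all genes. Over all genes tested, 16.9% were called in either direction and 9.8% higher. Tal1, the relative of Lyl1, was higher (3.03 ± 0.830 against 1.18 ± 0.499 FPKM; difference 0.93, SE 0.12, limma adjusted p = 2.1e-06). Gata2, the GATA factor of stem cells, was higher by 0.55, and Gata3, the GATA factor of T cells, by 0.78. Gata1, the GATA factor of red cells and megakaryocytes, was lower (2.40 ± 0.968 against 9.98 ± 3.00 FPKM; difference -1.69, SE 0.17, limma adjusted p = 3.83e-08). Ssbp3, an LDB1-binding protein, was lower by -0.36. Ldb1 itself, the abundant scaffold of the complex, was 154.0 ± 33.7 and 185.4 ± 28.8 FPKM and was not called (limma adjusted p = 0.112).

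Between DN2a and DN2b, 2 of these 14 partners were higher and 3 lower. Tal1 (7.05 ± 0.379 against 1.76 ± 0.956 FPKM; difference 1.58) and Gata2 (1.33) were higher in DN2a, and Ldb1 (-1.02), the E protein gene Tcf12 (-1.16) and Ssbp2 (-0.97) were lower. The median difference was -0.28, against -0.07 for all genes, of which 13.5% were called in either direction and 4.23% higher in DN2a. Gata3 differed by -0.15 there and was not called.

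The nearest relatives of the members also parted. Of 5 paralogues tested, Lmo4 was higher in the knockout (107.8 ± 36.8 against 48.7 ± 17.3 FPKM; difference 1.14, SE 0.18, limma adjusted p = 5.01e-05) and Lmo1 lower (2.96 ± 1.31 against 7.83 ± 2.05; difference -1.15, SE 0.15, limma adjusted p = 2.01e-06). Both belong to the LIM-only family of Lmo2. The share of all genes called in the knockout was 16.9% in either direction and 9.8% higher. Myc, the relative of Mycn, stood at 74.6 ± 20.8 and 70.4 ± 15.4 FPKM with a difference of 0.00 (SE 0.15). Mef2a and Mef2d, the relatives of Mef2c, differed by -0.19 and -0.22 and were not called. None of the 5 paralogues was called between DN2a and DN2b, where 13.5% of all genes tested were. Among 11 partners and antagonists of MYC and MEF2 proteins, 1 was called in the knockout, Mxd3, a MAX-binding repressor (-0.90, SE 0.14, limma adjusted p = 3.72e-05), and 0 between the stages. Max, the shared partner of the MYC family, differed by 0.08 and 0.02.

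Of 14 other stem and progenitor factors tested, 4 were higher in the knockout and 1 lower, with a median difference of 0.21 against 0.04 for all genes. The share of all genes called was 16.9% in either direction and 9.8% higher. Gfi1b, a repressor of red-cell and megakaryocyte progenitors, was higher by 1.48 (6.63 ± 2.84 against 1.82 ± 1.00 FPKM). Bcl11a, the paralogue of the deleted gene, was higher by 1.42 (15.5 ± 3.60 against 5.35 ± 2.07), and Spi1, which encodes PU.1, by 0.97 (21.7 ± 6.63 against 11.2 ± 4.45). Irf8 was higher by 0.66, and Gfi1 was lower by -0.69. Spi1, Bcl11a and Gfi1b were higher in DN2a as well, with Erg and Nfe2, and Gfi1 was lower, out of 15 tested. The median difference of the 15 was 0.36, against -0.07 for all genes. Of all genes 13.5% were called in either direction and 4.23% higher in DN2a. Gfi1b showed the largest difference among those called, 4.02 (SE 0.21, limma adjusted p = 0.000379), at 18.0 ± 3.35 FPKM in DN2a against 0.156 ± 0.0796 in DN2b. It passed the filter on low values only through DN2a, where it is high. These lists were drawn up with earlier results of these data known.

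**Figure D3:**
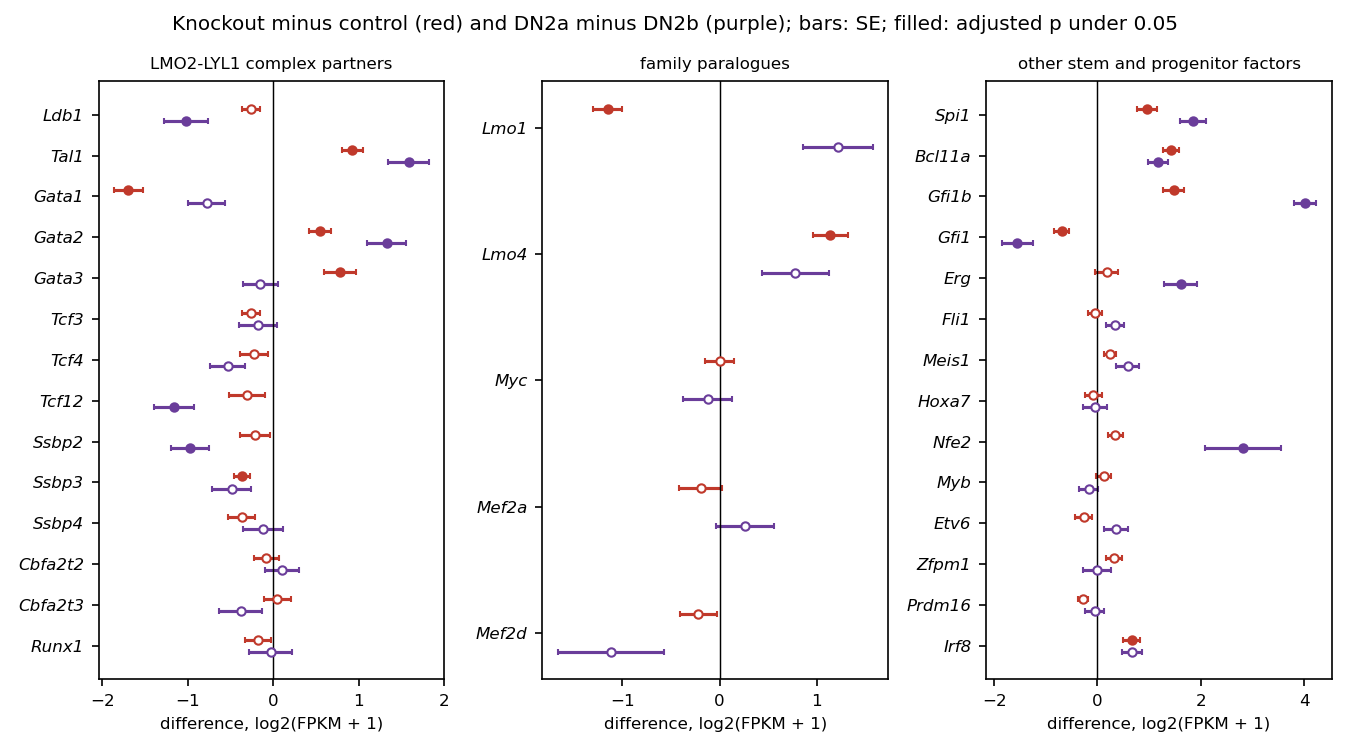
Log2 differences with SE for genes of 3 lists tested in both comparisons, knockout minus control in red and DN2a minus DN2b in purple, filled where the limma adjusted p was under 0.05. Tal1, Gata2, Spi1, Bcl11a and Gfi1b lie to the right in both colours, Gfi1 lies to the left, and Lmo1 lies on opposite sides.

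The knockout was then set directly against normal DN2a cells on the same stroma, to see how far it kept the DN2a level. Hhex and Mycn were lower in the 8 knockout libraries on DL1 than in the 4 DN2a libraries. Lmo2 and Mef2c were called lower too, but passed the filter on low values only through DN2a. Mean Mycn was 17.3 ± 6.14 FPKM (SD, n = 8) against 40.4 ± 5.12 (SD, n = 4). The 2 groups differ also in Cre exposure, year of title, the floxed stock, titled stage and culture day. Only knockout DL1 replicates 1 and 2 are titled DN2a, and IL-7 was reduced in replicate 1. Where days are given, they run from 9 to 12 in the knockout and are 8.5 and 4.5 in DN2a. The part of stage and day was not tested.

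Mycn ran from 11.3 through a median of 15.9 to 29.0 FPKM in the knockout on DL1, and its 4 DN2a values, given above, began at 36.2. No knockout library reached DN2a, and the difference was -1.23 (SE 0.22, limma adjusted p = 0.00366). Hhex ran from 14.7 through 20.7 to 23.1 FPKM, just under the lowest DN2a library at 23.8. Its difference was -0.59 (SE 0.15, limma adjusted p = 0.0171), and it was not called without DN2a replicate 2 (limma adjusted p = 0.0644) or replicate 4 (0.0598).

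Mef2c ran from 0.166 through 0.417 to 1.27 FPKM, below all 4 DN2a libraries, with a difference of -1.13 (SE 0.17, limma adjusted p = 0.00148). Lmo2 ran from 0.1 through 0.392 to 1.35 FPKM, where only knockout DL1 replicate 1 reached the DN2a range, with a difference of -0.88 (SE 0.20, limma adjusted p = 0.012). Both reached 1 FPKM in 4 of 4 DN2a and 1 of 8 knockout libraries, so a difference was built into their entry to the fit. Lyl1 ran from 23.7 through 58.0 to 105.2 FPKM. Its second highest knockout library lay under the lowest DN2a library, but replicate 3 lay within the DN2a range. With all libraries Lyl1 differed by -0.65 (SE 0.29, limma adjusted p = 0.134, not called), and it was called without knockout DL1 replicate 3 (-0.77, limma adjusted p = 0.049).

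Of Lyl1, Hhex and Mycn, which reached 1 FPKM in every library of both groups, 2 were called, both lower in the knockout, and 16.1% of 13097 genes were called in either direction and 6.73% lower. Tal1 was lower by -0.81 and Gata3 higher by 1.03 among the 14 complex partners. Lmo4 was higher (1.16) and Lmo1 lower (-0.95) among the paralogues, and the MAX partner Mxd4 (1.49) and the MEF2-binding deacetylase Hdac9 (0.89) were higher. Of 15 other progenitor factors 7 were lower, with a median difference of -0.60 against 0.02 for all genes, and 0 higher. The largest were Spi1 (-1.16), Gfi1b (-1.10) and Nfe2 (-0.88), followed by Prdm16 (-0.78), Hoxa7 (-0.76) and Meis1 (-0.63), and the seventh was Erg (-0.60). Myeloid markers summed to 12.2 to 48.9 FPKM in the knockout on DL1 and 52.6 to 70.4 in DN2a, and their part was not tested. The DN2a and knockout libraries used here also serve the comparisons above, so these differences share samples with them. After quantile normalization 46.9% of calls were higher in the knockout, against 58.1% without it. Leaving out DN2a replicates 1, 2 or 4 gave 1255, 1164 and 1059 called genes, against 2105.

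**Figure D4:**
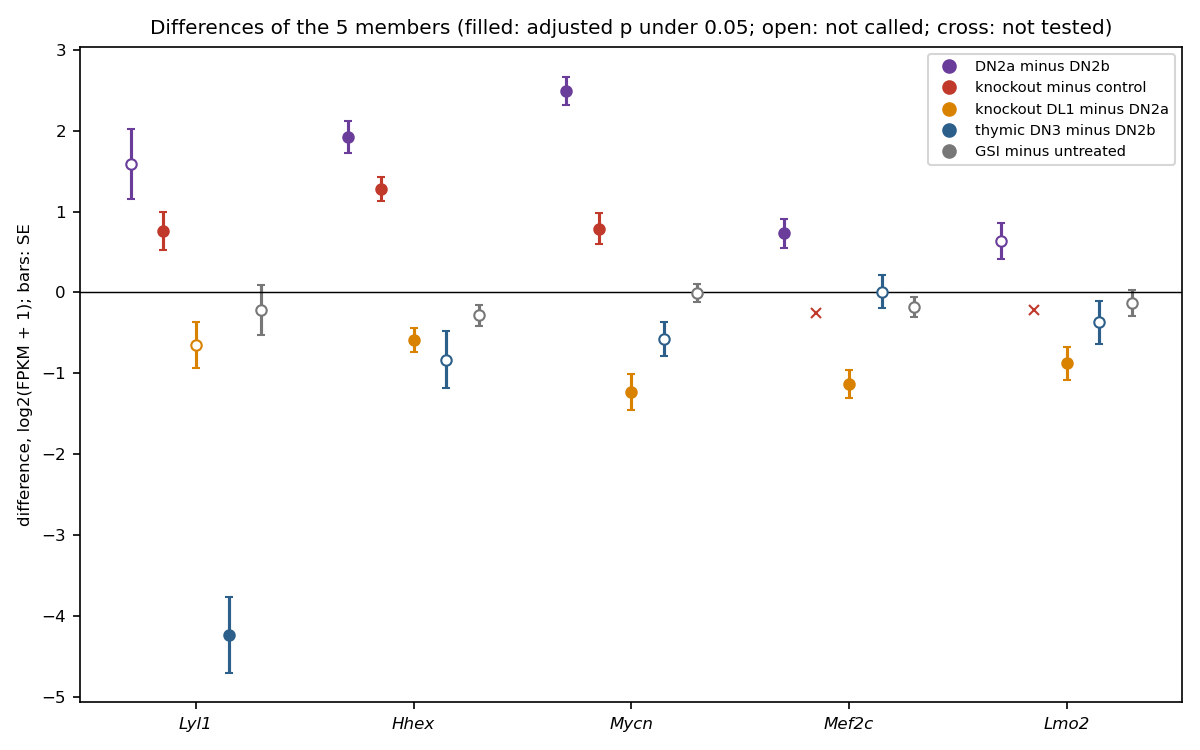
Log2 differences of the 5 members with SE in 5 comparisons, filled where the limma adjusted p was under 0.05, open where not, and crossed where the gene was too low to test. Hhex and Mycn lie above 0 for DN2a minus DN2b and for knockout minus control and below 0 for knockout minus DN2a, and Lyl1 alone falls far below 0 in thymic DN3.

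In the thymus the next stage, DN3, was set against cultured DN2b, a comparison in which stage and source differ together. Lyl1 was lower in DN3, at 0.1, 0.479 and 1.42 FPKM in the LckCre, floxed and CreERT2 libraries against 15.2 and 53.3 in DN2b. It was listed at the floor in the first and was under every DN2b library in the others. The difference was -4.23 (SE 0.47, limma adjusted p = 0.00897) and stayed called without any 1 of the 9 libraries fitted. Hhex stood at 1.64, 4.84 and 5.43 FPKM in DN3, a difference of -0.83 (SE 0.36, limma adjusted p = 0.329), and Mycn at 4.04, 4.74 and 3.11, a difference of -0.57 (SE 0.21, limma adjusted p = 0.247). All 3 DN3 libraries lay under both DN2b libraries for these genes too, without passing the test. Mef2c held 1.27, 1.22 and 0.677 FPKM (difference 0.01, SE 0.20), which straddled DN2b, and Lmo2 0.814, 0.1 and 0.198 (difference -0.37, SE 0.26). Neither was called.

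Of the 5 members tested 1 was called here, where 1.21% of 14045 genes were called in either direction and 0.812% lower. Leaving out 1 library changed the number of genes called from 170 to between 11 (without DN2b replicate 2) and 433 (without DN2b replicate 1). Without the floxed or the CreERT2 library it was 16 and 12, and without DN2a replicate 2, 3 or 4 it was 105, 63 and 40. Among related genes Lmo1 (-1.67), Spi1 (-2.79) and Meis1 (-2.24) were lower in DN3 and Hoxa7 higher (1.43), and 0 of 14 complex partners were called. Nfix, which overlaps Lyl1, differed by -0.43 and was not called. Against DN2a, fitted in the same model, Lyl1, Mycn, Hhex, Lmo2 and Mef2c were lower in DN3. There 33.5% of genes were called in either direction, and the share lower alone is not given. Stage and source differ together here too, and Lmo2 passed the filter only through its DN2a and DN2b levels. The differences from DN2a were -5.82 for Lyl1, -3.06 for Mycn, -2.75 for Hhex, -1.01 for Lmo2 and -0.72 for Mef2c.

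GSI was used to ask whether short exposure to a Notch inhibitor moves the same genes in normal DN2a and DN2b cells. How far Notch signalling fell in these libraries was not tested. No member was called, in a fit of 10 libraries in which limma called 0 of 13013 genes (0% background) and 426 had an unadjusted p under 0.05. Hhex was 21.7 and 23.7 FPKM in DN2a with GSI, against 23.8 and 35.3 in their partners of the same date, and 5.95 and 7.09 FPKM in DN2b with GSI, against 6.63 and 7.89. It was below its partner in 4 of 4 pairs, by -0.13 to -0.56, and its difference was -0.29 (SE 0.13, limma adjusted p = 0.999). Lmo2 was below its partner in 4 of 4 pairs too, by at most -0.11. Lyl1 was below it in 3 of 4, with the widest gap in DN2b replicate 2 (26.8 FPKM with GSI and 53.3 without). Mycn was below its partner in 2 of 4 pairs, at 38.4 and 42.8 FPKM with GSI in DN2a and 6.46 and 5.92 in DN2b, and Mef2c in 3 of 4. With the pairs as a block limma again called 0 genes, 1323 had an unadjusted p under 0.05, and Hhex differed by -0.24 (SE 0.11, limma adjusted p = 0.488).

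Stroma and culture day were examined for an effect on how far knockout and control lay apart. Neither interaction was called for any member tested. All 5 members were tested for stroma, but Lmo2 and Mef2c were too low to be tested for day. Nor was any of 14271 genes called for stroma (338 with an unadjusted p under 0.05 in limma) or 13674 for day (312), a background of 0% in each. On DL1 and DL4 the knockout difference was 1.34 and 1.09 for Hhex, 0.98 and 0.29 for Mycn and 0.79 and 0.67 for Lyl1. Mycn had the widest gap between stromas, an interaction of -0.67 (SE 0.40, limma adjusted p = 1.00). Mycn was called on DL1 (limma adjusted p = 0.0162) and not on DL4 (0.525), but its difference between the stromas did not pass. Where IL-7 was at its standard level, the DL1 and DL4 libraries came from different title years, so stroma and year cannot be told apart there.

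A control culture was sampled on days 9, 10 and 12, a first knockout culture on the same days and a second knockout culture on days 9 and 12, as their titles give dates and days. In the first knockout culture Mycn was 29.0, 18.6 and 11.3 FPKM. The second held 17.1 and 12.6 FPKM of it, and the control culture 19.0, 6.21 and 7.22. In each of the 3 cultures day 9 was the highest. Lyl1 was 105.2, 56.9 and 59.0 FPKM in the first knockout culture, and the second had 68.6 and 43.6 FPKM, while control values were 52.6, 30.3 and 53.8. Its day 12 values in the first knockout culture and the control were close, at 59.0 and 53.8. Hhex was 17.4, 23.1 and 17.9 FPKM in the first knockout culture, 20.9 and 22.5 FPKM in the other, and control values were 13.9, 4.92 and 8.52, so the gap between genotypes was narrowest on day 9. The interactions with day were -0.69 (SE 0.52) for Mycn, 0.36 (SE 0.67) for Lyl1 and -0.49 (SE 0.42) for Hhex. That fit treats days of 1 culture as separate libraries, and control DL1 replicate 4, the day 9 control, is the library whose Mycn stood apart from its group.

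**Figure D5:**
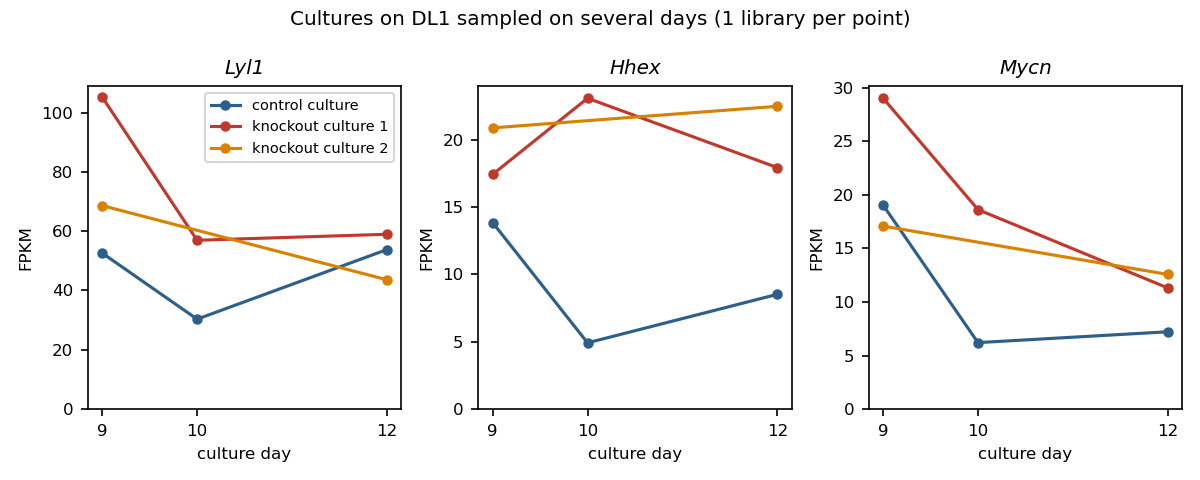
FPKM of Lyl1, Hhex and Mycn by culture day in 1 control and 2 knockout cultures on DL1, 1 library per point, with the axis starting at 0. Mycn is highest on day 9 in every culture, and both knockout lines of Hhex lie above the control on each day.

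The remaining conditions had 1 library each and allow no test, so only values and a 2-fold mark on log2(FPKM + 1) are given. In thymic cells deleted by LckCre in vivo and sorted as DN2, Lyl1 was 15.7 FPKM, Hhex 8.41 and Mycn 9.04, against 0.1, 1.64 and 4.04 in the LckCre control sorted as DN3. In the same 2 libraries Lmo2 was 1.48 against 0.814 FPKM and Mef2c 1.23 against 1.27. Lyl1 and Hhex passed 2-fold there, as did 4.73% of 13553 genes in that direction and 8.29% in either, but stage and title year differ along with genotype. In DN3 cells deleted by tamoxifen and cultured for 4 days, Lyl1 was 31.1 FPKM and Hhex 12.6, against 0.1 and 3.29 in the control of the same length. The control cultured for 3 days, from an earlier title year than the knockout, held 9.78 and 3.53 FPKM, under the knockout for both. Lyl1 and Hhex again passed 2-fold (10.4% of 13654 genes did in that direction and 15.1% in either; 12.6% and 19.2% against the 3-day control), whereas Mycn was 5.74 FPKM in the knockout, 4.87 in the 4-day control and 8.77 in the 3-day control. Nfix was 13.7 FPKM in that knockout and 6.18 and 2.08 in the controls, so the overlapping gene also stood above them.

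Cells given a vector 36 h before harvest allowed Bcl11b to be put back. Bcl11b was 24.7 FPKM in knockout cells with empty vector and 105.4 with the Bcl11b vector (isoform of exons 1, 2 and 4). Mycn was 22.5 FPKM with empty vector and 13.2 with Bcl11b, Hhex 17.0 and 10.9, and Lyl1 33.4 and 29.7. The control with empty vector held 8.70, 7.46 and 19.1 FPKM, so each gene with Bcl11b lay between the empty-vector knockout and control. None of the 5 members passed 2-fold on adding Bcl11b, and 1.64% of 13250 genes did in the lower direction and 3.51% in either. Between the empty-vector libraries Hhex and Mycn passed 2-fold above the control, as did 5.07% of genes, with 8.26% in either direction. Lmo2 and Mef2c ran the other way, at 0.825 and 0.412 FPKM with empty vector and 1.19 and 0.748 with Bcl11b, below 1.52 and 1.03 in the control. NK markers, led by Gzmb, summed to 265.9 FPKM in the empty-vector knockout, 186.8 with Bcl11b and 44.2 in the control, and their part was not tested. In bone marrow, where Bcl11b did not separate the labels, the library labelled knockout held less of all 5 members: Lyl1 37.4 against 55.9 FPKM, Hhex 13.9 against 25.4, Mycn 10.6 against 20.0, Lmo2 1.19 against 1.61 and Mef2c 0.766 against 1.12. None reached 2-fold, a mark that 2.85% of genes passed. With reduced and standard IL-7 on the same date, DL4 knockout libraries held 47.2 and 33.8 FPKM of Lyl1, 12.0 and 13.7 of Hhex and 11.7 and 8.77 of Mycn, and 1.74% of genes but no member passed 2-fold. The empty-vector knockout and control were both titled DN2b. Without a further vector, a single pair of libraries, DL1 replicate 7 of either genotype, was titled DN2b on both sides. There Lyl1 was 43.6 FPKM in the knockout and 8.15 in the control, Hhex 22.5 and 7.75 and Mycn 12.6 and 7.42. Lyl1 and Hhex passed 2-fold upward, as did 5.15% of genes (8.6% in either direction), Lmo2 was at the floor against 1.27 FPKM, and Mef2c was 0.327 against 1.09.

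Across libraries the members resembled each other to different degrees. Pearson's r of log2(FPKM + 1) over the 47 libraries, given as a description, was 0.85 for Hhex with Mycn, 0.74 for Lyl1 with Hhex and 0.70 for Lyl1 with Mycn. Lmo2 and Mef2c had 0.78 with each other. Between these, r was 0.41 for Mycn with Mef2c and 0.41 for Mycn with Lmo2, 0.25 for Hhex with Lmo2, 0.21 for Hhex with Mef2c, 0.19 for Lyl1 with Lmo2 and 0.10 for Lyl1 with Mef2c. Libraries of a stage share stroma, batch adjustment and sort, and the groups lie apart, so these values describe the stages as much as the genes.

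Among 10375 genes that reached 5 FPKM in at least 4 libraries, the most alike to Hhex was Tal1 (r = 0.91), followed by Arhgap6, Spns2, Pik3cb and Cd244a, down to 0.89. Mycn was most like Adap1 (0.91) and then Gfi1b (0.91), Tal1 (0.90), Ncf1 and Bex6. For Lyl1 the nearest were Ccdc102a (0.92), Lst1, Nrgn, Tuba8 and Haao (0.89). Tal1 was therefore among the 5 nearest genes of both Hhex and Mycn. Lmo2 was nearest to Ccl3 (0.70), and Mpo, Car2 and Afap1l1 were also among its nearest genes. Mef2c was nearest to Ncs1 (0.76), and Lyz2, Afap1l1 and Clec10a were also among its nearest. The genes nearest to this pair include Mpo and Lyz2, granule genes of myeloid cells. For values this low, near the floor, small shifts weigh heavily in r.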

How the data were processed

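RNA was selected with oligo-dT, fragmented and copied by random priming, per the labels' protocols. The deposited table holds FPKM values merged over libraries and adjusted by the authors with ComBat, per the file header; the build is mm9, per the submitters' processing notes, while no source used here names the aligner, the quantifier or the ComBat batches. ComBat can shrink or shift differences between batches. 16 further columns of other samples were not used. Total FPKM per library was 581205 to 1005744, depth is unknown, and no 2 libraries were identical (highest correlation 0.989).

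limma 3.58.1 in R 4.3.3 was fitted to log2(FPKM + 1) over genes reaching 1 FPKM in at least as many libraries as the smaller group, with trended empirical Bayes and Benjamini-Hochberg adjustment over all genes tested, and called at an adjusted p under 0.05. The pseudocount understates changes of low genes. The knockout fit had stroma and IL-7 as covariates, the GSI fit stage. Scripts were tested on simulated data. Figures used Python 3.11.15 and matplotlib 3.10.9.

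Knockout and control pairs came from shared title dates. Deviations of paired libraries from their group means correlated from -0.06 to 0.54 for knockout pairs and 0.63 to 0.66 for GSI pairs. Both DN2b pairs share the same value by construction, because DN2b with and without GSI hold only 2 libraries each. Alternatives were another pseudocount, no filter, quantile normalization, robust empirical Bayes, replicate blocks, subsets by stroma, IL-7, year and title, and leaving out each library. The text names the 5 members, list genes called in a comparison (up to 6 by size, otherwise the most abundant), the 5 most alike genes, except where an item is not reported here, and Bcl11b. The members and lists were chosen with earlier results of these data known. Promoter sequences are from RefSeq (GRCm38.p6), where Lyl1, Hhex, Mycn and Mef2c matched. GENCODE M21 was used for overlapping genes, matched by gene identifier and position.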

Additional observations from a re-analysis of the deposited data

Results flagged for a closer look

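Mycn in control DL1 replicate 4 was 19.0 FPKM, far above the other 7 libraries of its group, which ran up to 8.56 FPKM. Its gap to the next library was 0.685 of the range of the group, past Dixon's critical value of 0.526 for 8 libraries. This was 1 of 20 checks, each of 1 member in 1 group of 4 to 10 libraries, and chance alone flags about 1 in 20. The checks share libraries, so they are not independent. The library is the day 9 sample of the control culture, and Hhex was also highest there, at 13.9 FPKM.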

How the results depend on the processing

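No called difference of the 5 members changed sign under the alternatives run; signs of other genes were not followed. For knockout against control, 2142 genes were called. The count was 1282 with the replicate block of 9 pairs, 858 with 7 culture pairs, 1396 with standard and 430 with reduced IL-7, 988 on DL1, 451 on DL4, 475, 270 and 778 within the first, second and last title year, and 185 among libraries titled DN2. Leaving out 1 library gave 1830 to 2246. For DN2a against DN2b, 1799 became 1065 with a pseudocount of 0.1, 624 with the replicate block, 234 without the day 4.5 library (DN2a replicate 4) and 60 to 1406 without 1 library. The block removed the call of Mef2c (limma adjusted p = 0.181) and changed no other member's call. For knockout against DN2a, leaving out 1 library gave 1059 to 2369. For DN3 against DN2b, 170 became 33 with DN2b and DN3 fitted alone and 11 to 433 without 1 library. Interactions gave 0 to 4 calls for stroma and 0 to 2 for day without 1 library. For GSI limma called 0 genes in 18 of 18 alternatives, the replicate block among them. Lyl1 in the knockout was called in 33 of 42 alternatives, Mycn in 36 and Hhex in 40. Fewer libraries are fitted in each subset; otherwise the cause was not tested. Low levels near the floor limit what can be said of Lmo2 and Mef2c, and their counting error is unknown.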
